A study of Mus musculus with 4 samples.

Results

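The Kv4 channel complex was followed through 8 genes of the mouse brain, *Kcnd2*, *Kcnd3*, *Kcnip1*, *Kcnip2*, *Kcnip3*, *Kcnip4*, *Dpp6* and *Dpp10*, out of the 32285 genes in the count tables. They were taken by symbol, and each symbol matched 1 gene. The list was drawn up with earlier results of these data known, and the value that led to it is not recorded. The difference of *Dpp10* between the groups is therefore a description below, and where it is counted past a threshold this is no test of it.

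Kv4 channels carry the transient A-type potassium current, which opens below the firing threshold, inactivates quickly and damps signals that travel back into dendrites. The pore is built from *Kcnd2* (Kv4.2) or *Kcnd3* (Kv4.3). KChIP proteins, encoded by *Kcnip1* to *Kcnip4*, are calcium-binding subunits that bind the cytoplasmic end of the pore and bring it to the membrane. *Dpp6* and *Dpp10* encode single-pass membrane proteins related to dipeptidyl peptidases that have lost the enzyme activity and speed up the gating of the channel.

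Nuclei came from brain sections of female 5XFAD mice, which carry human amyloid precursor protein and presenilin transgenes with familial Alzheimer mutations under the neuronal Thy1 promoter. Mice aged 7 to 10 weeks by the labels received engineered extracellular vesicles (EVs) intravenously, with a low (PE-low) or a high (PE-high) load of phosphatidylethanolamine. All 4 libraries were 5XFAD and EV-treated. Each group consisted of 2 libraries with 2 mice pooled in each, so n = 2 per group and the spread between libraries is the only replicate error.

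The tables held between 29472021 and 43272337 UMIs (unique molecular identifiers, 1 per counted RNA molecule) per library. Between 8739 and 13967 barcodes per library were called as nuclei, and 10689 nuclei in all passed the filters of 200 to 2500 genes and at most 3% mitochondrial UMIs. The mitochondrial limit removed 62.3% to 89.5% of the called nuclei of a library, most in PE-high replicate 1. Libraries shared between 0 and 4 barcodes. Median depth was 2332.5 and 2885 UMIs in PE-low replicates 1 and 2 and 1877 and 1712 in PE-high replicates 1 and 2. Clusters were built without the 8 genes and named from marker genes as excitatory neuron-like (4340 nuclei), striatal projection neuron-like (2674), inhibitory neuron-like (1995), astrocyte-like (485), oligodendrocyte-like (527), oligodendrocyte precursor-like (238) and microglia-like (116). Levels below are CPM, the share of a gene in all UMIs of a class in a library, scaled so that 10000 CPM is 1% of them, with mean ± SD over the 4 libraries. Near-empty barcodes, which hold free RNA of the suspension, were measured the same way. Fewer cells of a kind within a class and less RNA per cell cannot be told apart in such sums.

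The genes differ in length, from 24.2 kb for *Kcnip2* (ENSMUSG00000025221, chromosome 19, 45791839 to 45816061, minus strand) and 65.6 kb for *Kcnip3* (ENSMUSG00000079056, chromosome 2, 127456498 to 127522094, minus strand) to 1135 kb for *Kcnip4* (ENSMUSG00000029088, chromosome 5, 48389502 to 49524907, minus strand). *Kcnd2* (ENSMUSG00000060882) spans 514 kb on the plus strand of chromosome 6 from 21215503 to 21729805. *Kcnd3* (ENSMUSG00000040896) spans 222 kb on the plus strand of chromosome 3 from 105452330 to 105674002, and *Kcnip1* (ENSMUSG00000053519) 364 kb on the minus strand of chromosome 11 from 33629339 to 33993152. *Dpp6* (ENSMUSG00000061576) covers 910 kb on the plus strand of chromosome 5 from 26817203 to 27727505, and *Dpp10* (ENSMUSG00000036815) 724 kb on the minus strand of chromosome 1 from 123321471 to 124045559 (GRCm38, GENCODE M21, whole genes with introns).

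The promoters of *Dpp10* and *Kcnd2* are shown because their levels ran in opposite directions between excitatory and striatal neuron-like nuclei and each has a single promoter in RefSeq (GRCm38.p6). The windows are chr1:124045510-124045809, minus strand, for *Dpp10* and chr6:21215096-21215395, plus strand, for *Kcnd2*, each 300 bases long, read 5′ to 3′, with CG dinucleotides in capitals.
Dpp10: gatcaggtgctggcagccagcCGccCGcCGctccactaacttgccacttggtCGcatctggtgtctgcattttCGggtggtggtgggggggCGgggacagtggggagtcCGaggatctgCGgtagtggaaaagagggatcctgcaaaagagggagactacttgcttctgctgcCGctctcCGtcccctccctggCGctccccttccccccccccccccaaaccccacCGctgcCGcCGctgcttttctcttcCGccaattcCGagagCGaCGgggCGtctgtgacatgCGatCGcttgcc
Kcnd2: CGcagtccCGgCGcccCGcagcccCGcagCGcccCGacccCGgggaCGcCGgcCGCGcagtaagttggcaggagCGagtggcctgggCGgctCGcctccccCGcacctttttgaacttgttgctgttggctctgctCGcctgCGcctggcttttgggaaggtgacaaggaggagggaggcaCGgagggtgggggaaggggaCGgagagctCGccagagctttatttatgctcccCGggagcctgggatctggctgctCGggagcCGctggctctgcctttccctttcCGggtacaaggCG
The *Dpp10* window holds 21 CG dinucleotides and the *Kcnd2* window 26, against a median of 7 over the 32851 RefSeq promoter windows of that length. At least as many CG dinucleotides as in *Dpp10* occur in 24.8% of them and as many as in *Kcnd2* in 16.9%. The 3′ libraries do not measure which promoter was used. All 8 genes matched, with 15 RefSeq promoters in all, and 4 of the genes have 1 promoter.

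*Kcnd2*, the Kv4.2 pore, was counted most in striatal projection neuron-like nuclei, with 5003 and 5734 CPM in PE-low replicates 1 and 2 and 4784 and 5086 CPM in PE-high replicates 1 and 2. Oligodendrocyte precursor-like nuclei came next with 2964, 4096, 3958 and 3715 CPM in the same order of libraries. These ranges overlapped neither each other nor those of inhibitory (2146 ± 253) and excitatory neuron-like nuclei (1857 ± 81.2 CPM, n = 4). Inhibitory and excitatory neuron-like nuclei overlapped, as did astrocyte-like (1700 ± 108), microglia-like (1362 ± 408) and oligodendrocyte-like nuclei (1360 ± 478 CPM). Near-empty barcodes held 455 ± 70.2 CPM, below every class in each library.

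*Kcnd3*, the Kv4.3 pore, was the lower of the pore genes per kb of gene in every class. In excitatory neuron-like nuclei *Kcnd2* stood at 3.61 ± 0.158 CPM per kb and *Kcnd3* at 1.07 ± 0.0963 CPM per kb (SD, n = 4). In striatal projection neuron-like nuclei they stood at 10.0 ± 0.795 and 0.585 ± 0.0929 CPM per kb. *Kcnd3* had its highest mean in precursor-like nuclei (309 ± 114 CPM, from 95 UMIs), followed by inhibitory (240 ± 30.6) and excitatory neuron-like nuclei (236 ± 21.4 CPM), and the ranges of these 3 overlapped. *Kcnd3* made up 2.48% of the pore UMIs in striatal projection neuron-like nuclei (± 0.512, SD) and 11.3% in excitatory neuron-like nuclei (10.2% to 12.2%), so these classes did not overlap.

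*Kcnip4* was the most counted KChIP gene in every class. It reached 8988 and 9274 CPM with PE-low and 9240 and 9464 CPM with PE-high EVs in the libraries of excitatory neuron-like nuclei, and 5241 ± 626 CPM in inhibitory and 5011 ± 346 CPM in striatal projection neuron-like nuclei, which overlapped. Per kb of gene the order of the KChIP genes depended on the class. In excitatory neuron-like nuclei *Kcnip4* (8.14 ± 0.172 CPM per kb) was above *Kcnip3* (2.11 ± 0.232) and *Kcnip2* (1.34 ± 0.347), whereas in striatal projection neuron-like nuclei *Kcnip2* (6.14 ± 1.31 CPM per kb) had a higher mean than *Kcnip4* (4.41 ± 0.305).

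*Kcnip1* was the most uneven of the 8 genes between neuronal classes. Inhibitory neuron-like nuclei held 409 and 435 CPM with PE-low and 426 and 413 CPM with PE-high EVs. Excitatory neuron-like nuclei held 7.39 and 5.59 CPM with PE-low and 8.43 and 6.91 CPM with PE-high EVs, from 81 UMIs in all. The excitatory values lay below those of near-empty barcodes (18.1 ± 4.16 CPM) in 4 of 4 libraries, so they are at the level of free RNA. Of the nuclei thinned to 500 UMIs each, which left out at most 16 nuclei of a class in a library, 15.7% of inhibitory neuron-like nuclei had a *Kcnip1* UMI (14.6% to 16.5% over libraries) and 0.41% of excitatory neuron-like nuclei (0.199% to 0.584%). Without thinning the mean shares were 45.5% and 1.55%, at library medians of 1603 to 2848 UMIs in inhibitory and 2030.5 to 3599 UMIs in excitatory neuron-like nuclei. Precursor-like nuclei were the other class with *Kcnip1*, at 196, 581, 330 and 256 CPM, and overlapped with the inhibitory class.

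*Kcnip2* was above the near-empty barcodes (63.1 ± 8.14 CPM) in all 4 libraries only in striatal projection neuron-like nuclei, at 138 and 192 CPM with PE-low and 117 and 148 CPM with PE-high EVs. In the other 7 sources its ranges overlapped from one neighbour in the order to the next. *Kcnip3*, also known as DREAM or calsenilin, which besides binding Kv4 represses transcription and binds presenilins, lay at 233 ± 100 CPM in precursor-like, 151 ± 12.9 in striatal, 145 ± 32.0 in astrocyte-like and 138 ± 15.2 CPM in excitatory neuron-like nuclei, which overlapped. Inhibitory neuron-like nuclei, at 34.1 ± 5.18 CPM, lay below the near-empty barcodes (53.4 to 64.4 CPM) in 4 of 4 libraries.

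The auxiliary DPP subunits divided the neurons. *Dpp10* was counted at 7624 and 8180 CPM with PE-low and 8829 and 8766 CPM with PE-high EVs in the libraries of excitatory neuron-like nuclei, above the range of every other class. *Dpp6* had its highest levels in inhibitory (1463 ± 162 CPM) and striatal projection neuron-like nuclei (1273 ± 107), which overlapped, then in precursor-like nuclei (843 ± 111), and lay at 440 ± 38.4 CPM in excitatory neuron-like nuclei. *Dpp10* thus made up 94.8% to 95.2% of the DPP UMIs over the libraries of excitatory neuron-like nuclei, 56.3% in inhibitory (54.7% to 58.5%) and 46.6% in striatal projection neuron-like nuclei (32.8% to 59.6%).

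**Figure D1:**
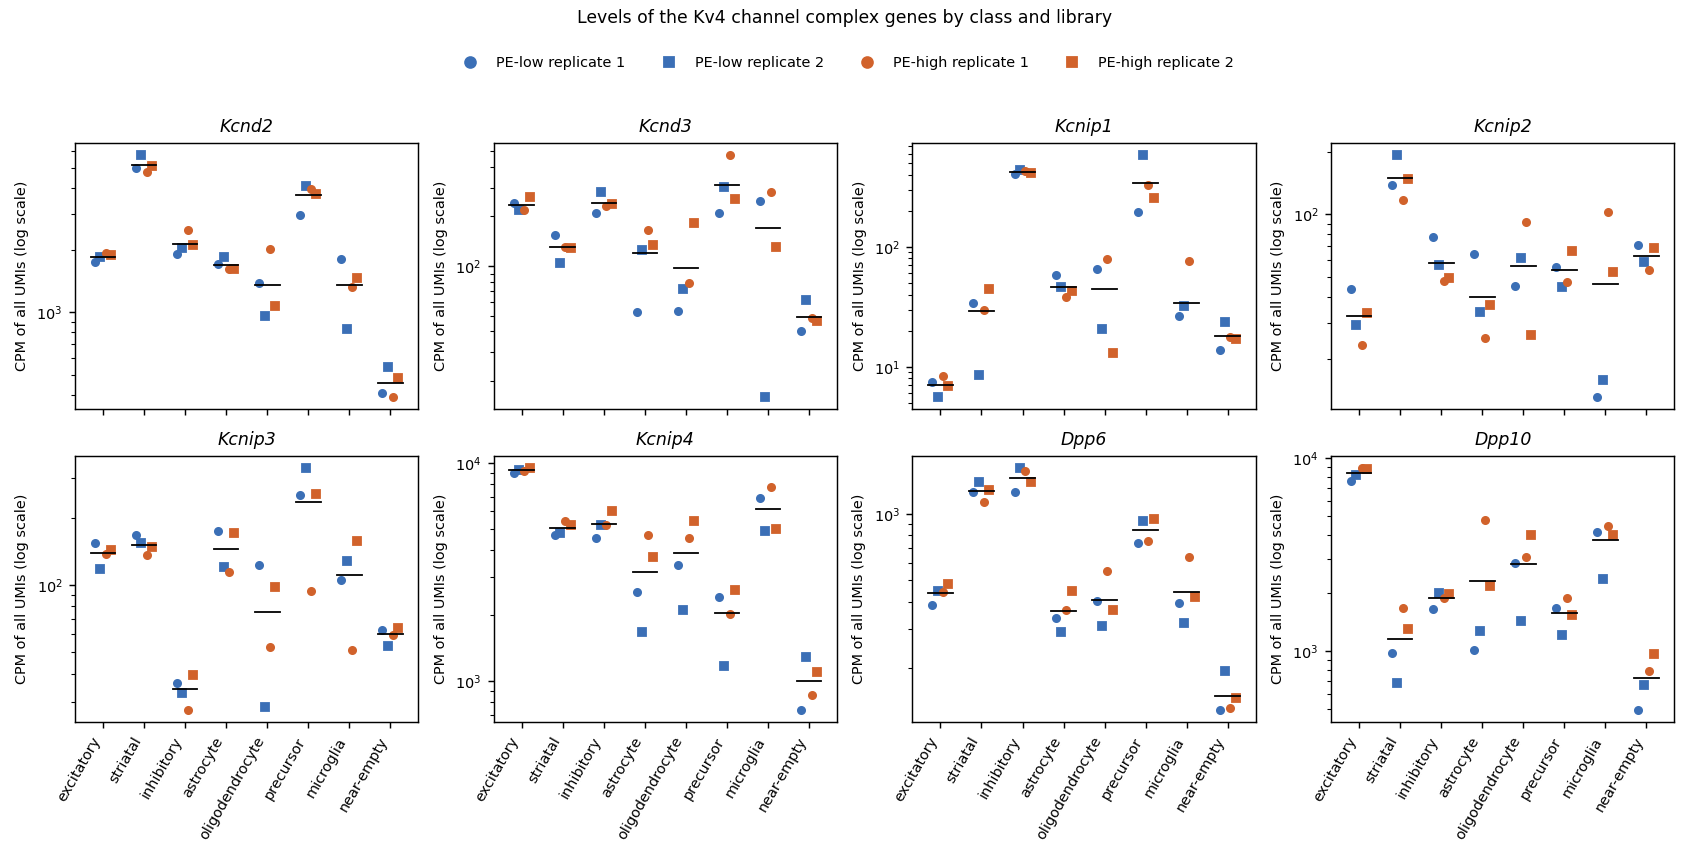
Level of each of the 8 genes (vertical axis, CPM of all UMIs, log scale) in 7 classes and in near-empty barcodes, 1 point per library and a line at the mean. *Dpp10* and *Kcnip4* peak in excitatory, *Kcnd2* and *Kcnip2* in striatal and *Kcnip1* in inhibitory neuron-like nuclei; 1 microglia-like library with 0 *Kcnip1* UMIs is not drawn.

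The classes were compared with edgeR's quasi-likelihood test on the summed UMIs, with the library as a covariate, over 9135 genes and with Benjamini-Hochberg adjustment at 0.1. In striatal projection against excitatory neuron-like nuclei, 4 of the 8 genes were higher and 3 lower, where 45.1% of all tested genes passed (23% higher, 22.2% lower). *Kcnip2* was 4.68-fold higher (log2 2.23, standard error 0.12), *Kcnip1* 4.17-fold, *Dpp6* 2.98-fold and *Kcnd2* 2.84-fold, while *Dpp10* was 7.46-fold lower (log2 −2.90, standard error 0.22), *Kcnip4* 1.81-fold and *Kcnd3* 1.78-fold lower. The adjusted p-values of edgeR ranged from 1.81e-24 for *Kcnip2* to 1.56e-04 for *Kcnip4*, and *Kcnip3* did not pass (log2 0.18, standard error 0.11, adjusted p = 0.219).

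In excitatory against inhibitory neuron-like nuclei, 3 genes were higher and 3 lower, where 35.8% of all tested genes passed (18% higher, 17.8% lower). *Dpp10* was 4.80-fold (log2 2.26, standard error 0.21), *Kcnip3* 4.32-fold and *Kcnip4* 1.94-fold higher. *Kcnip1* was 55.1-fold lower on the fitted scale (log2 −5.79, standard error 0.20), and the fold is set by counts at the level of free RNA: it moved between log2 −6.73 and −3.43 over the alternatives. *Dpp6* was 3.05-fold and *Kcnip2* 1.57-fold lower. The pore genes did not pass, *Kcnd2* at log2 −0.08 (standard error 0.16) and *Kcnd3* at log2 0.09 (standard error 0.12). For these neuronal contrasts the genes that passed kept their sign in every alternative run.

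**Figure D2:**
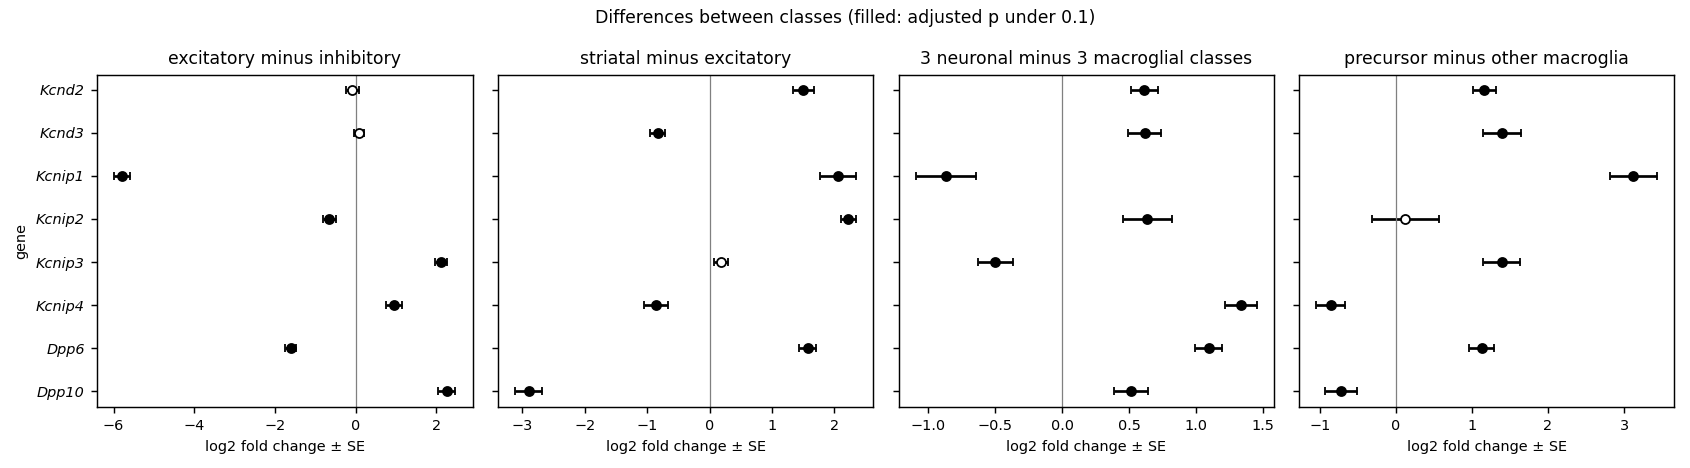
Log2 fold change with standard error (horizontal axis) of each gene in 4 contrasts between classes, fitted over 4 libraries; filled points passed an adjusted p of 0.1. The DPP genes point in opposite directions in the contrasts of neuronal classes, *Dpp10* at 2.26 and −2.90 and *Dpp6* at −1.61 and 1.57; in the contrasts with macroglia, *Kcnip1*, *Kcnip2*, *Kcnip3*, *Kcnip4* and *Dpp10* change sign under at least 1 alternative, as given in the text.

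Within classes the genes varied between clusters, which are described without a test. *Dpp10* ran over 12.6-fold between the 7 excitatory neuron-like clusters of at least 50 nuclei. It was highest in cluster 5, with *Hs3st4* and *Zfpm2* among its leading genes (14933 CPM, 13957 to 16527 over libraries), and also high in cluster 12 (13380 CPM), with *Npr3* and *Tafa1*, and cluster 3 (11418 CPM), with *Rspo2* and *Car10*. It was at 2165 CPM in cluster 6, led by *Rorb*, and 1186 CPM in cluster 15, with *Ntng2* and *Nr4a2*. *Kcnip4* ran over only 2.46-fold in the same clusters and *Kcnd2* over 1.79-fold. *Kcnip3* was at 6.61 CPM in cluster 15 and between 80.7 and 244 CPM in the other 6.

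Among inhibitory neuron-like clusters, cluster 20, with *Foxp2* and *Tshz1* among its leading genes, held *Kcnd2* at 7899 CPM (7514 to 8307 over libraries), above all other clusters, the striatal ones included. *Kcnip1* was highest in cluster 14, with *Vip* and *Adarb2*, at 1132 CPM (801 to 1362 over libraries), followed by cluster 21, with *Nxph1*, at 747 CPM and cluster 8, with *Kcnc2* and *Btbd11*, at 581 CPM. Cluster 4, with *Baiap3* and *Prlr*, held 274 CPM of it. *Dpp10* and *Dpp6* ran over 1.77-fold and 1.78-fold between the 6 inhibitory clusters, so the range of *Dpp10* was narrower there than in the excitatory class.

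**Figure D3:**
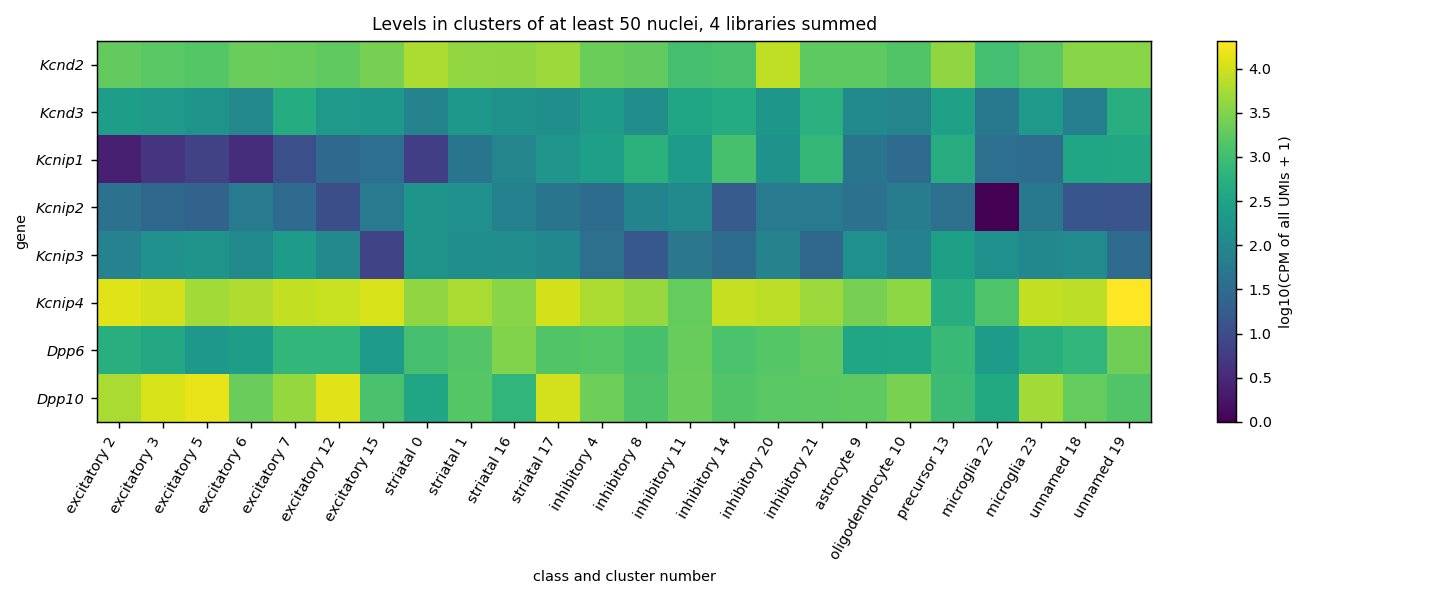
Levels of the 8 genes (rows) in the 24 clusters of at least 50 nuclei (columns, grouped by class), as log10 of CPM + 1 with the 4 libraries summed. *Dpp10* spans 360 to 10558 CPM between the striatal clusters 0 and 17, *Kcnip4* is highest in unnamed cluster 19 (20639.9 CPM), and the microglia-like clusters 22 and 23 differ in *Kcnip4* and *Dpp10*.

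In macroglia the levels depended on the filter, and neuronal markers were counted there too. The 3 neuronal classes against the 3 macroglial classes gave 6 genes higher and 2 lower in neurons, where 45.7% of all tested genes passed (25.2% higher, 20.6% lower). *Kcnip4* was 2.52-fold, *Dpp6* 2.13-fold and *Dpp10* 1.43-fold higher in neurons. Of the neuronal classes only the excitatory one (8350 CPM) had a higher *Dpp10* mean than all 3 macroglial classes, and the inhibitory (1878) and striatal means (1162 CPM) lay below those of oligodendrocyte-like (2837) and astrocyte-like nuclei (2312 CPM). *Kcnip1* (log2 −0.87, standard error 0.22) and *Kcnip3* (log2 −0.50, standard error 0.13) were lower, and their signs turned to 0.39 and 0.04 with the mitochondrial limit at 15%, *Kcnip1* also to 0.44 when nuclei were assigned by a marker gate.

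The 15% limit left 688 to 920 astrocyte-like and 868 to 1207 oligodendrocyte-like nuclei per library, against 45 to 205 and 47 to 225 under the 3% limit. *Dpp10* then fell in level from 2837 ± 1055 to 455 ± 195 CPM in oligodendrocyte-like nuclei and from 2312 ± 1723 to 979 ± 323 CPM in astrocyte-like nuclei (SD, n = 4). *Kcnip4* went from 3871 ± 1430 to 602 ± 192 CPM and from 3156 ± 1308 to 1479 ± 365 CPM in the same classes. In precursor-like nuclei *Kcnd2* was at 3235 CPM and *Kcnip1* at 354 ± 98.1 CPM under the 15% limit, close to 3683 and 341 CPM under 3%. *Dpp10* went from 1576 to 1380 CPM and *Kcnip4* from 2056 to 1660 CPM in precursor-like nuclei. In oligodendrocyte-like nuclei *Kcnd2* fell as well, from 1360 to 248 CPM. The levels of *Dpp10* and *Kcnip4* in mature macroglia and of *Kcnd2* in oligodendrocyte-like nuclei therefore depended on which nuclei were kept. Those of the same genes and of *Kcnip1* in precursor-like nuclei did so less.

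Shares of ambient RNA were estimated from markers of other classes. They came to 50.7% to 82.3% in astrocyte-like, 50.2% to 77.6% in oligodendrocyte-like and 14.6% to 21.6% in excitatory neuron-like nuclei. The shares of these glial classes are too high for free RNA alone. Kept nuclei held at most 3% mitochondrial UMIs, and near-empty barcodes 10.7% to 14.2%. The 8 excitatory markers were all detected in astrocyte-like cluster 9 (1056 CPM summed) and oligodendrocyte-like cluster 10 (1204 CPM). Their sum was 2280 to 2406 CPM in excitatory neuron-like nuclei and 3057 to 3496 CPM in near-empty barcodes. The ratio of *Dpp10* to *Kcnip4* UMIs was 0.68 to 0.84 in oligodendrocyte-like nuclei, 0.52 to 0.91 in near-empty barcodes and 0.40 to 1.03 in astrocyte-like nuclei. It was 0.59 to 1.03 in precursor-like, 0.48 to 0.80 in microglia-like and 0.85 to 0.96 in excitatory neuron-like nuclei. In inhibitory neuron-like nuclei it was 0.33 to 0.38 and in striatal projection neuron-like nuclei 0.14 to 0.31. Subtracting the near-empty profile at the estimated shares raised *Dpp10* from 2837 to 3841 CPM and *Kcnip4* from 3871 to 5277 CPM in oligodendrocyte-like nuclei. That profile held less of these genes than the nuclei did. The part of neuronal RNA in these levels was not tested further.

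Levels differed between the glial clusters. Oligodendrocyte-like cluster 26, with *Bcas1* and *Enpp6* among its leading genes, had *Kcnd2* at 122, *Kcnip4* at 243 and *Dpp10* at 313 CPM in 39 nuclei, against 1367, 3814 and 2800 CPM in cluster 10. Microglia-like cluster 22 had *Dpp10* at 420 and *Kcnip4* at 1332 CPM in 57 nuclei, and cluster 23, which holds *Tafa1*, a leading gene of excitatory clusters, beside *Cx3cr1* among its leading genes, 5148 and 8449 CPM in 53 nuclei. Summed excitatory markers stood at 1076 CPM in cluster 22 and 2016 CPM in cluster 23. Oligodendrocyte-like cluster 31, of 12 nuclei, held 1007 CPM of these markers with *Dpp10* at 59.2 and *Kcnip4* at 237 CPM.

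Oligodendrocyte precursors differed from other macroglia in 7 of the 8 genes, 5 higher and 2 lower, where 12.9% of all tested genes passed (6.56% higher, 6.36% lower). *Kcnip1* was 8.71-fold higher (log2 3.12, standard error 0.31), *Kcnd3* and *Kcnip3* both 2.62-fold, *Kcnd2* 2.24-fold and *Dpp6* 2.18-fold higher, with edgeR adjusted p-values from 2.60e-12 to 2.23e-05. These 5 stayed higher in every alternative run, although *Kcnip3* was no longer past the threshold without PE-low replicate 2 (log2 0.76), nor was the lower *Dpp10* without PE-high replicate 2 (−0.63). *Kcnip4* and *Dpp10* were 1.81-fold and 1.65-fold lower, and both turned to higher with the 15% limit, at log2 0.81 and 1.06. In the precursor-like cluster 13 of 200 nuclei, *Kcnip4* was at 491 and *Dpp10* at 893 CPM. The smaller cluster 27 of 38 nuclei held 4942 and 2647 CPM of these genes and had a median depth of 2593 UMIs against 1103. *Kcnip2* did not pass in precursors (log2 0.13, standard error 0.44).

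The genes whose pattern over the 6 classes and near-empty barcodes was most like each member are given as a description over 7 points that share the same libraries. For *Kcnip1* they were *Btbd11*, *Arhgef6* and *Nxph1* (Pearson r 0.96, 0.96 and 0.95 on log2 of CPM + 1), of which *Nxph1* is among the markers that named the inhibitory class. For *Kcnip2* they were *Clip4*, *Akap9* and *Gnal* (0.94), the last the G protein that couples dopamine and adenosine receptors in the striatum. For *Dpp10* they were *Rskr*, *Zfp697* and *Cdh12* (0.97, 0.96 and 0.96), for *Dpp6* *Kif26b*, *Rab27b* and *4930555F03Rik* (0.99, 0.98 and 0.98). *Kcnip4* was closest to *Htr1f*, *Pcnx2* and *Stxbp5l* (0.99, 0.99 and 0.98), *Kcnd2* to *Ewsr1*, *Ago4* and *Zc3h12c* (0.98), *Kcnd3* to *Rps6kc1*, *Mmp16* and *Col11a1* (0.99, 0.98 and 0.98) and *Kcnip3* to *Gm48228*, *Foxk2* and *Sun2* (0.95, 0.91 and 0.86).

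Relatives by sequence were read as levels only. *Kcnd1*, the third Kv4 pore gene, had means between 1.66 and 4.19 CPM in the 6 classes tested, below its near-empty mean of 5.70 ± 1.17 CPM. The peptidases *Dpp8* and *Dpp9*, which keep their enzyme activity, had means between 58.8 and 110 CPM and between 4.79 and 21.4 CPM over these classes. *Fap*, another peptidase of the family, reached 30.6 ± 5.75 CPM in excitatory neuron-like nuclei, and *Dpp4* stayed at or below 5.21 CPM in every class. Among calcium sensors of the same family as the KChIPs, *Hpca* reached 98.5 ± 18.8 CPM in striatal projection neuron-like nuclei and 245 ± 34.8 CPM in near-empty barcodes. *Hpcal4* and *Ncs1* were also highest in near-empty barcodes (303 and 153 CPM), and *Hpcal1* stood at 15.5 CPM in inhibitory neuron-like nuclei. *Ncald* was highest in precursor-like nuclei (613 ± 83.2 CPM) and *Vsnl1* in near-empty barcodes (439 CPM), and both were lowest in striatal projection neuron-like nuclei, at 72.1 and 91.8 CPM.

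Other genes that act on Kv4 channels and other potassium channel subunits were read from lists of 12 and 17 genes. Between striatal projection and excitatory neuron-like nuclei, 5 of 10 tested genes of the first list were higher and 2 lower, with a median log2 fold change of 0.18 against 0.02 over all genes, of which 45.1% passed. *Kcnab1*, a β subunit of Kv1 channels that also binds Kv4, was at log2 2.96 (standard error 0.15) and *Akap5*, an anchor of protein kinase A, at 1.35 (0.13). *Dlg1*, a scaffold, was at −0.56 (0.11) and *Kcnab2* at −0.45 (0.14). Of 16 tested other channel subunits, 4 were higher and 9 lower (median log2 −0.26), among them *Kcnc2* at −2.82 (0.16), *Kcnh7* at −2.38 (0.16), *Kcnh5* at −1.27 (0.12) and *Kcnb2* at −0.996 (0.15) and, higher, *Kcna4* at 1.59 (0.12), the other A-type pore gene. These genes were among those that could shape the clusters.

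Between excitatory and inhibitory neuron-like nuclei, 4 of 10 Kv4 partners were higher and 1 lower (median log2 0.09), and 10 of 16 other subunits were higher and 3 lower (median 0.50), where 35.8% of all tested genes passed. *Dlg1* stood at log2 1.56 (0.12), *Kcnab2* at 0.57 (0.15), *Dlg4* at 0.35 (0.12) and *Kcnab1* at −1.31 (0.15). *Kcnh5* (1.70, standard error 0.14) and *Kcnh1* (1.36, 0.13) were higher and the fast-spiking Kv3 genes *Kcnc1* (−1.55, 0.11) and *Kcnc2* (−1.44, 0.13) lower in excitatory nuclei. Against macroglia, 6 of 10 partners and 11 of 16 other subunits were higher in neurons and 0 lower, with medians of 0.51 and 0.97, where 45.7% of all tested genes passed. In precursors against other macroglia, 0 of 10 partners passed, where 12.9% of all tested genes did, and of the other subunits *Kcnh5* was higher (1.08, 0.32) and *Kcna1* lower (−1.32, 0.35). Of 216 other genes of at least 500 kb, 139 were higher and 44 lower in neurons than in macroglia (median log2 0.49), beside 0.51 for *Dpp10*.

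PE-high was compared with PE-low within each class, with 2 libraries per group. Where groups are said not to overlap, this describes the libraries only. How many of all genes separate in this way was not counted, so it does not set a gene apart. In striatal projection neuron-like nuclei *Dpp10* was counted at 975 and 686 CPM with PE-low and 1682 and 1304 CPM with PE-high EVs, without overlap (log2 0.82, standard error 0.16). The list may have been drawn up from this contrast, so these values are a description. Of the other 7 genes 0 passed in this class, where 5 of 10817 genes did, 0.0462%, all of them higher with PE-high EVs. The other 7 lay between log2 −0.33 (*Kcnip2*, standard error 0.19) and 0.83 (*Kcnip1*, standard error 0.38) in these nuclei. *Kcnip1* was at 34.1 and 8.46 CPM with PE-low and 29.9 and 44.3 CPM with PE-high EVs, which overlapped.

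The striatal clusters differ in *Dpp10* and made up the class in different shares. Cluster 0, with *Drd2*, *Dach1* and *Ebf1* among its leading genes, held *Dpp10* at 222 and 445 CPM with PE-low and 339 and 398 CPM with PE-high EVs. Cluster 1, with *Drd2*, *Rarb* and *Pde1c*, held 1228 and 1379 CPM with PE-low and 1986 and 1548 CPM with PE-high EVs. Cluster 17, led by *Htr4* and *Casz1* and with the dopamine receptor *Drd3*, held 10543, 2642, 11160 and 11806 CPM, the 2642 from 4 nuclei. Cluster 0 thus overlapped between the groups and cluster 1 did not.

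Cluster 0 gave 52.0% and 72.8% of the striatal nuclei with PE-low and 41.6% and 46.3% in the PE-high libraries, and cluster 1 gave 39.3% and 25.1% against 48.0% and 43.5%. Cluster 17 gave 34 and 4 nuclei with PE-low and 26 and 43 with PE-high EVs. These few nuclei held 624 and 26 *Dpp10* UMIs with PE-low and 350 and 567 with PE-high EVs, beside 919 and 592 against 708 and 991 in cluster 1. Within cluster 0 alone the log2 fold change of *Dpp10* was 0.14 (standard error 0.23), within cluster 1 alone 0.43 (0.13), and over both together 0.69 (0.14). In striatal nuclei with no UMI of 5 excitatory markers it was 0.72 (0.17). These 4 subsets were chosen after the data had been seen. The difference in the class was thus larger than in either main cluster. The shares of the clusters differed between the groups too, and their part in the difference of *Dpp10* was not tested.

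Free RNA moved in the same direction. In near-empty barcodes *Dpp10* was at 497 and 669 CPM with PE-low and 785 and 972 CPM with PE-high EVs. The 8 excitatory markers summed to 1075 and 1004 CPM in PE-low and 1233 and 1119 CPM in PE-high striatal nuclei, and only *Sv2b* of the 8 was higher in both PE-high libraries than in both PE-low ones, with *Slc17a6* lower. The ambient share of striatal nuclei, estimated from markers, was 22.2% and 18.8% with PE-low and 27.5% and 26.4% with PE-high EVs. Both PE-high shares are too high for free RNA alone. Near-empty barcodes held 14.2% and 11.5% mitochondrial UMIs in PE-high replicates 1 and 2, and kept nuclei at most 3%. With the near-empty profile subtracted at the estimated shares, the log2 fold change of *Dpp10* was 0.89 (standard error 0.22). The part of free RNA in the difference was not tested further. Without PE-high replicate 1 the log2 fold change was 0.63 (0.23), and without PE-low replicate 1 it was 1.04.

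**Figure D4:**
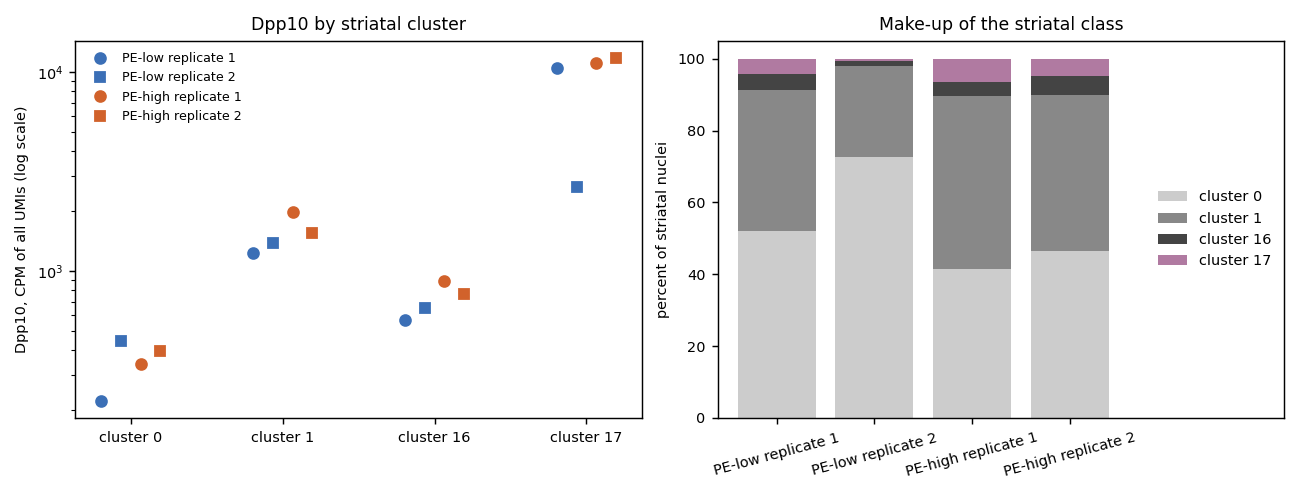
Left, *Dpp10* (CPM of all UMIs, log scale) in the 4 striatal projection neuron-like clusters, 1 point per library. Right, the share of each cluster among the striatal nuclei of each library, where cluster 0, low in *Dpp10*, makes up 52.0% and 72.8% of the PE-low and 41.6% and 46.3% of the PE-high nuclei.

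In the other neurons the 8 genes moved little between groups. In excitatory neuron-like nuclei, where 6 of 13038 genes passed, 0.046% (0.023% in each direction), the 8 genes lay between log2 −0.28 (*Kcnip2*, standard error 0.20) and 0.23 (*Kcnip1*, 0.35). *Dpp10* was at 0.18 (0.11), with both PE-high libraries above both PE-low ones, and *Kcnd2* at 0.12 (0.10). In inhibitory neuron-like nuclei, where 0 of 10209 genes passed by edgeR (0%; 375 at an unadjusted p under 0.05 and 0 by DESeq2), they lay between −0.41 (*Kcnip2*, 0.23) and 0.24 (*Kcnd2*, 0.15), with *Dpp10* at 0.11 (0.15). *Kcnip2* had a negative value in all 3 neuronal classes, and its groups overlapped in the striatal and excitatory classes. In inhibitory neuron-like nuclei it was at 77.9 and 57.0 CPM with PE-low and 47.6 and 49.1 CPM with PE-high EVs, which did not overlap.

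In astrocyte-like nuclei *Dpp10* was at 1018 and 1269 CPM with PE-low and 4787 and 2174 CPM with PE-high EVs (log2 1.60, standard error 0.35), and *Kcnip4* at 2572 and 1671 against 4660 and 3723 CPM (0.99, 0.28). The groups did not overlap for either gene, and how many of all genes separate in this way was not counted. By edgeR 0 of 3695 genes passed in this class (0%; 240 at an unadjusted p under 0.05), and by DESeq2 1 gene passed, which was *Dpp10* (log2 1.56, standard error 0.34) and is likewise given as a description. The ambient share estimated from markers, too high to be free RNA alone, was highest in PE-high replicate 1 of this class (82.3%), which held 45 nuclei. The excitatory markers summed to 972 and 921 CPM with PE-low and 1359 and 1263 CPM with PE-high EVs in the libraries of this class, and the astrocyte markers to 2549 and 3382 against 1739 and 2484 CPM. Their part in the values of *Dpp10* and *Kcnip4* was not tested.

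Oligodendrocyte-like nuclei gave *Kcnd3* at log2 1.18 (standard error 0.41), from 53.0 and 72.0 CPM in the PE-low to 78.8 and 183 CPM with PE-high EVs, with *Kcnip4* at 0.88 (0.27) and *Dpp10* at 0.76 (0.32). By edgeR 0 of 4272 genes passed (0%; 221 at an unadjusted p under 0.05 and 0 by DESeq2). The excitatory markers summed to 1081 and 943 against 1340 and 1477 CPM there. In precursor-like nuclei the 7 tested genes lay between −0.59 (*Kcnip1*, 0.50) and 0.41 (*Kcnip4*, 0.34), and 0 of 1683 genes passed by edgeR (0%; 36 at an unadjusted p under 0.05 and 0 by DESeq2). *Kcnip2* in precursors and *Kcnip1* and *Kcnip2* in astrocytes were too sparse to test.

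**Figure D5:**
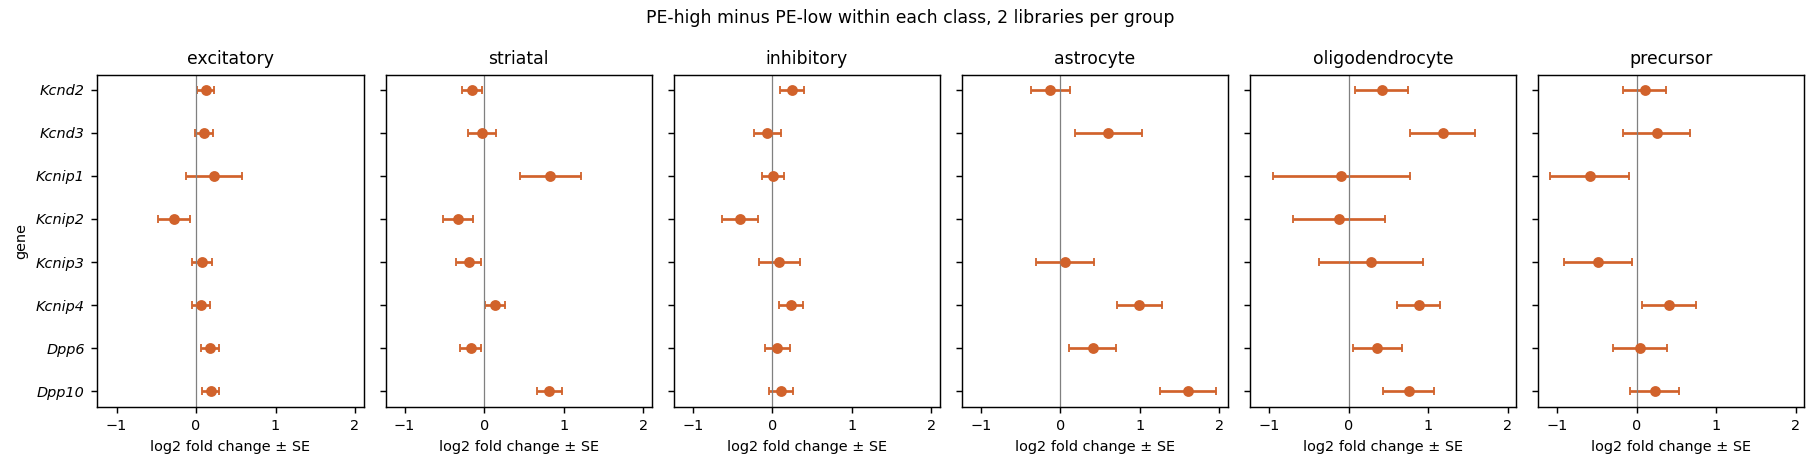
Log2 fold change, PE-high minus PE-low, with standard error for each gene in each of 6 classes (2 libraries per group); genes too sparse to test have no point. In the neuronal panels most points lie near 0, with *Dpp10* at 0.82 and *Kcnip1* at 0.83 in striatal nuclei, and *Dpp10* lies at 1.60 in astrocyte-like and 0.76 in oligodendrocyte-like nuclei.

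The difference of the PE-high against PE-low effect between classes was fitted over the 3 neuronal classes. For *Dpp10* it was −0.68 (standard error 0.16) for inhibitory minus striatal, −0.61 (0.15) for excitatory minus striatal and 0.07 (0.15) for excitatory minus inhibitory neuron-like nuclei. These values use the striatal contrast described above and are given without a test. Of the other 7 genes 0 passed in each comparison. Of all tested genes 0.0869% passed for inhibitory minus striatal (0.0237% higher, 0.0632% lower), 0.142% for excitatory minus striatal (0.0632% higher, 0.079% lower) and 0.0079% for excitatory minus inhibitory nuclei (all higher).

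Neither list of other genes held a gene past the threshold in any class for PE-high against PE-low. In striatal nuclei the Kv4 partners had a median log2 of −0.09 and the other channel subunits −0.01, against −0.01 over all genes. In astrocyte-like nuclei the other channel subunits had a median of 0.60 over 11 tested genes and the genes of at least 500 kb a median of 0.25 over 202, against −0.02 over all genes. In oligodendrocyte-like nuclei these medians were 0.22 and 0.17 against 0.00 over all genes. In precursor-like nuclei the genes of at least 500 kb had a median of −0.09 over 189, beside 0.22 for *Dpp10* and 0.41 for *Kcnip4*.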

How the data were processed

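The authors counted single-nucleus 3′ reads with Cell Ranger 7.1.0 on mm10 and deposited raw UMI counts per gene and barcode for 4 libraries, near-empty barcodes included; the deposited gene and barcode lists hold names, a unit other than a measurement. Whether intronic reads were counted is not given in the sources used here. Nuclei were called from a knee 10 times below the 0.99 quantile of UMIs and a test of barcodes with at least 500 UMIs against those ranked 45000 to 90000 (FDR 0.01), which also served as near-empty barcodes. The limits of the study were applied (200 to 2500 detected genes, no more than 3% mitochondrial UMIs), and the remaining nuclei were clustered with scanpy 1.11.5 (2000 variable genes without the 8 members, 30 components, 20 neighbours, Leiden resolution 0.8), which gave 33 clusters, 4 of them unnamed. Clusters may differ from the published ones because their names were rebuilt from markers. Doublets were not removed in the main analysis. Scrublet marked only 31 nuclei, and how many doublets it missed was not tested, so the run without them is a weak check.

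UMIs were summed per class and library and tested with edgeR 4.0.16 (quasi-likelihood, TMM, filterByExpr, Benjamini-Hochberg over all tested genes, threshold 0.1), checked on simulated data. The study tested single nuclei. Each library pools 2 mice, so p-values of PE-high against PE-low measure the spread between 2 pools per group. Those between classes measure how far class differences vary over the 4 libraries. Depth limits glia most: precursor-like nuclei gave 20 to 94 nuclei per library. Alternatives were DESeq2 1.42.0, no filter on low genes, an adjusted p of 0.05, a replicate block, no upper gene limit, a 15% mitochondrial limit, a marker gate, ambient subtraction, Scrublet, leaving out each library and thinning to 500 UMIs. Named genes are the 8 members, genes past the threshold in the 2 other lists (up to 5 per fit by smallest p) and the 3 genes most like each member; relatives and leading cluster genes are named as descriptions. The members and lists were chosen with earlier results of these data known. Some genes that the rule for named genes would take are not reported here.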

Additional observations from a re-analysis of the deposited data

Results flagged for a closer look

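The PE-high against PE-low difference of *Dpp10* was smaller in inhibitory than in striatal projection neuron-like nuclei by −0.68 on the log2 scale (standard error 0.16). It is given as a description without a test, since the contrast may have led to the list. Called nuclei above the mitochondrial limit, outside the comparisons, held *Dpp10* at 2560 to 3383 CPM over the 4 libraries. The unnamed cluster 19, with *Synpo2*, *Lef1* and *Slc17a6* among its leading genes and 95 nuclei, held *Kcnip4* at 20639.9 CPM, above all named clusters.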

How the results depend on the processing

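In striatal projection neuron-like nuclei 1 of the 8 genes (*Dpp10*) passed for PE-high against PE-low, which records the settings and is no test of *Dpp10*, since this contrast may have led to the list. That count was 0 with DESeq2, with no upper limit on genes, with a 15% mitochondrial limit, with ambient RNA subtracted and at an adjusted p of 0.05, and, among subsets chosen after the data were seen, 0 in cluster 0 alone, in cluster 1 alone, without clusters 16 and 17 and in nuclei with no UMI of 5 excitatory markers. Leaving out each library gave 0 to 4 (0 without PE-high replicate 1, 4 without PE-low replicate 1). Over all these settings its log2 fold change stayed positive, from 0.14 to 1.04. In excitatory neuron-like nuclei the count was 0 and became 0 to 2 when a library was left out (2 without PE-low replicate 2). In astrocyte-like nuclei it went from 0 to 1 with DESeq2 and with no filter on low genes, to 2 with the replicate block, and to 0 to 2 without a library. In oligodendrocyte-like nuclei it went from 0 to 1 with the replicate block and to 0 to 2 without a library (2 in both classes without PE-low replicate 1). The difference of the effect between excitatory and striatal nuclei went from 0 genes to 1 with no filter on low genes and with the marker gate, and to 0 to 1 without a library. Between inhibitory and striatal nuclei it went from 1 gene to 0 with DESeq2, no upper limit on genes, the 15% limit, ambient RNA subtracted and an adjusted p of 0.05, and to 0 to 3 without a library. Counts over all genes moved with the settings too. In astrocyte-like nuclei 1 of 16722 genes passed with DESeq2 and 2 with no filter on low genes. With the replicate block 102 of 3695 passed there, and 5 of 4272 in oligodendrocyte-like nuclei. Between excitatory and striatal nuclei 48 of 23756 passed with no filter on low genes and 7 of 11773 with the marker gate. Some runs without a library also called more of all genes. The causes were not tested. A lone library in an arm was assumed to vary like the other group.

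The labels do not say what the replicate numbers stand for. Deviations of same-numbered libraries correlated between −0.05 and 0.12 over genes, which cannot tell whether such libraries were processed together. With the replicate block, 34 genes passed in excitatory, 26 in striatal, 12 in inhibitory, 102 in astrocyte-like, 5 in oligodendrocyte-like and 0 in precursor-like nuclei, against 6, 5, 0, 0, 0 and 0, and the block changed no other count of the 8 genes.

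Between classes 11 values turned sign. *Kcnd2* in excitatory against inhibitory nuclei went to 0.11 with no upper limit on genes, 0.13 with the 15% limit and −0.11 to 0.00507 without a library. In neurons against macroglia, *Kcnip1* went to 0.39 with the 15% limit and 0.44 with the marker gate, and *Kcnip3* to 0.042 with the 15% limit. In precursors against other macroglia, *Kcnip4* and *Dpp10* went to 0.81 and 1.06 with the 15% limit, and *Kcnip2* to −0.0795 with no upper limit on genes, −0.67 with the marker gate and −0.13 to 0.28 without a library. Of the other class values, 369 kept direction and side of the threshold and 4 lost the threshold.

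Over all genes, the counts past the threshold ranged from 0 to 204 in excitatory and 0 to 32 in striatal nuclei over the settings with all libraries, and up to 269 and 320 without a library. They ranged from 2274 to 6017 between excitatory and inhibitory, 2805 to 7025 between striatal and excitatory, 3417 to 9423 between neurons and macroglia and 827 to 4080 between precursors and other macroglia. Depth limits glia most, where precursor-like sums held 18 *Kcnip2* UMIs.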
